A study of Rattus norvegicus with 9 samples.

Results

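The effect of YEXX-2A, a compound known here by its code name alone, was measured against vehicle in NRK-49F, a rat cell line of fibroblasts from the kidney interstitium. Every group received TGF-β1, with an incubation of 48 h per the labels. The comparison used 6 of the 9 RNA-seq libraries, 3 from TGF-β1 with vehicle and 3 from TGF-β1 with YEXX-2A, and the other 3 came from another compound. The labels give the genotype as wt and no dose or timing of YEXX-2A. No cells without TGF-β1 were analysed here, so each difference is between a pair of TGF-β1-treated groups. Libraries were chosen by label alone, and every gene with enough counts was tested, 11255 of the 22050 in the table. The labels do not say whether the replicates came from separate cultures, and p-values reflect the spread among the 6 libraries only. In bulk RNA, fewer cells of a type and less RNA per cell cannot be told apart.

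TGF-β1 signals through a pair of receptor kinases to SMAD transcription factors and turns fibroblasts into myofibroblasts, contractile cells that deposit collagen. Kidney fibrosis is the build-up of such matrix between the tubules. Type I interferons act through transcription factors that bind a short DNA element, the interferon-stimulated response element (ISRE), in front of antiviral genes. Cells short of sterols release SREBP2, which switches on the cholesterol synthesis genes. These programmes are background to the gene groups described here.

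The libraries held between 13675880 and 21923706 estimated counts. Vehicle replicate 2 stood apart from the other libraries. On the first principal component of log2 CPM (counts scaled to a common library size), which held 64.1% of the variance, it lay at -52.3, with vehicle 1 and 3 at -10.1 and -6.4 and the YEXX-2A libraries between 14.4 and 31.4. Between replicates the biological coefficient of variation came to 16.6% for the 3 vehicle libraries, 4.7% for vehicle 1 and 3 and 7.3% for YEXX-2A. Mitochondrially encoded genes took 1.425% of the counts in vehicle 2 and between 1.899% and 2.657% in the others. Fibroblast genes were expressed, with Vim at up to 6790 CPM and Pdgfra at up to 190 CPM. The mesenchymal markers Fap and Tcf21 were at 0 in all 6 libraries and Dcn reached 0.176 CPM.

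A gene was called at a Benjamini-Hochberg adjusted p under 0.05 in the edgeR quasi-likelihood test. With all 6 libraries 1408 genes (12.5%) were called, 666 higher with YEXX-2A (5.92%) and 742 lower (6.59%). Of these, 139 rose and 75 fell at least 2-fold. The median log2 fold change of all tested genes was 0.005. When vehicle 2 was left out and the same genes were tested again, 3324 (29.5%) were called, 1734 higher (15.4%) and 1590 lower (14.1%).

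Nearly all the calls stood without vehicle 2. All 1408 genes kept their direction, and 1388 (12.3% of those tested) were called in both fits, 648 higher (5.76%) and 740 lower (6.57%). The changes were smaller without it. In 1279 of the 1408 genes the log2 fold change shrank, with a median ratio of 0.822 (quartiles 0.765 and 0.903), and 142 of the 214 genes with at least a 2-fold change kept that size. Vehicle 2 was the vehicle library farthest from the YEXX-2A mean in 1221 of the called genes and in 8675 of all tested genes. In every called gene the 3 vehicle values did not overlap the 3 YEXX-2A values, which held for 52.0% of all tested genes.

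As long as vehicle 2 was kept, the number of calls depended more on other libraries. It fell to 120 without vehicle 1, to 29 without YEXX-2A 1, to 58 without YEXX-2A 2 and to 93 without YEXX-2A 3, and was 2619 without vehicle 3. All 1408 genes kept their direction in each of these fits. A call made with all 6 libraries and without vehicle 2 can therefore still be lost when vehicle 1 or a YEXX-2A library is dropped. Where another library is left out, the counts given with the gene groups keep vehicle 2. With vehicle 2 left out as well, 2229, 2745 and 4424 genes were called without YEXX-2A 1, 2 and 3. Of the 11255 tested genes, 4661 had an unadjusted p under 0.05 in edgeR with all 6 libraries. The number was 4193, 4771 and 5176 without vehicle 1, 2 and 3, and 2956, 2461 and 3805 without YEXX-2A 1, 2 and 3. Counts of list members at that threshold are to be read against these numbers, which cover both directions.

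**Figure D1:**
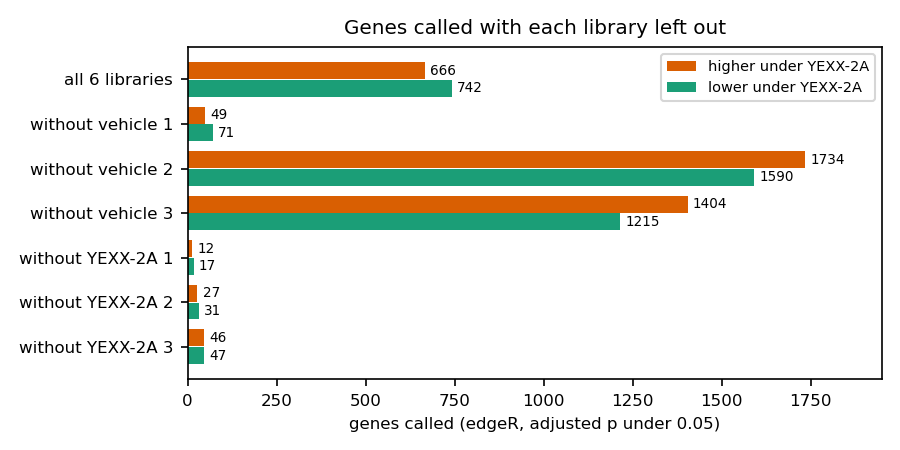
Number of genes called higher (orange) and lower (green) with YEXX-2A by edgeR, with all 6 libraries and with each library left out (bars, genes). Leaving out vehicle 2 or vehicle 3 raised the number of calls to 3324 and 2619, and leaving out any other library lowered it to between 29 and 120.

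**Figure D2:**
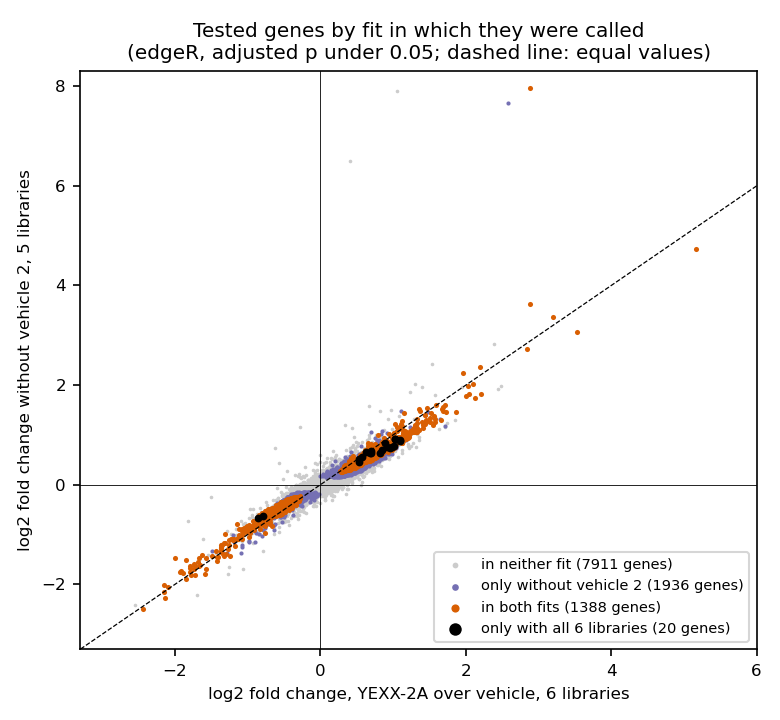
Log2 fold change of YEXX-2A over vehicle for each tested gene with all 6 libraries (horizontal axis) and without vehicle 2 (vertical axis), coloured by the fits in which the gene was called. The 1388 genes called in both fits have the same sign on both axes, and 1279 of the 1408 genes called with 6 libraries lie closer to 0 on the vertical axis.

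Only 28 genes were called with each of the 6 libraries left out in turn, 12 higher and 16 lower. This set was chosen after the values were seen. The rises were Spp1, Mx2, Lmcd1, Ttc27, Myh4, Rsad2, Bmper, LOC100365839, Ifit1, Ptgfr, Tshr and Rbp4. The falls included Adam19, Acta2, Lsp1, Mmp3, Aqp1, Lrrc32, Tagln, Ccn5, Itgax, Fmod, LOC102550080, Padi3, Itgb4, Cyth4 and Rasgrf1. Tagln, Acta2 and Fmod belong to the usual fibrosis genes, and most of the others do not.

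Spp1 encodes osteopontin, a secreted phosphoprotein that binds integrins. It stood at 2919, 2116 and 2911 CPM in vehicle 1 to 3 and at 6980.5, 7059 and 6930.0 CPM in YEXX-2A 1 to 3. All YEXX-2A libraries were over 2 times the highest vehicle library, and the YEXX-2A libraries lay close together. Its log2 fold change was 1.40 (SE 0.13, adjusted p = 0.00225) and 1.27 without vehicle 2 (adjusted p = 2.75e-09). Spp1 had the largest rise in CPM of any called gene. On the length-corrected FPKM scale its mean level went from rank 25 to rank 4 among all genes.

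Several rises were in surface receptors and secreted regulators. Tshr, the receptor for thyrotropin, was at 0.946, 0.619 and 0.704 CPM with vehicle and at 6.63, 4.19 and 5.83 CPM with YEXX-2A (log2 fold change 2.85, SE 0.28, adjusted p = 0.00308). Ptgfr, the receptor for prostaglandin F, went from 8.71, 6.19 and 7.81 CPM to 25.7, 26.7 and 22.3 CPM (1.71, SE 0.16). In both genes each YEXX-2A library was over 2 times the highest vehicle library. Bmper, a secreted protein that binds bone morphogenetic proteins, went from 30, 31.7 and 32.3 to 61.9, 60 and 62.8 CPM (0.98, SE 0.09), with little spread within each group. Rbp4, the blood carrier of retinol, had 2 counts in all vehicle libraries together and 110 with YEXX-2A, a ratio of 41.5 with an exact 95% interval of 11.2 to 347 that covers counting error only.

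Lmcd1, a LIM-domain protein that acts as a transcriptional cofactor, went from 96.4, 108 and 95.3 to 185, 189 and 204 CPM (0.95, SE 0.09). Myh4, a fast skeletal muscle myosin heavy chain, went from 28.6, 26.8 and 28.9 to 78, 73.3 and 76.7 CPM, and Ttc27, a tetratricopeptide-repeat protein, from 45.1, 43.5 and 49.8 to 125, 124 and 127 CPM. Both had a log2 fold change of 1.41 without vehicle 2. LOC100365839, annotated as a 40S ribosomal protein S3a-like gene, went from 23.2, 14.1 and 15.4 to 62.7, 57.8 and 49 CPM, and its reads may be shared with near-identical copies.

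Among the falls, Tagln (transgelin), which binds actin in smooth muscle cells, stood at 47.6, 54.6 and 54 CPM in vehicle 1 to 3 and at 15.5, 13.8 and 15.5 CPM with YEXX-2A. Acta2, α-smooth muscle actin, went from 282, 374 and 282 to 119.9, 122 and 123 CPM. The 3 YEXX-2A libraries were within 3 CPM of each other for both genes. Fmod, a small proteoglycan that binds collagen fibrils, went from 23.4, 29.3 and 23.6 to 6.63, 7.34 and 6.62 CPM (-1.89, SE 0.14, and -1.77 without vehicle 2).

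Genes of proteolysis and TGF-β presentation were also in the set. Adam19, a membrane metalloprotease, fell from 314, 371 and 344 to 157, 160.1 and 170.3 CPM (-1.08, SE 0.09). Mmp3, stromelysin-1, fell from 155, 172 and 147 to 78.2, 76.4 and 80.6 CPM. Lrrc32, also called GARP, holds latent TGF-β on the cell surface, and fell from 65.5, 84.4 and 67.4 to 30.6, 26.5 and 28.3 CPM (-1.35, SE 0.12). In these 3 genes every YEXX-2A library lay far below the lowest vehicle library. Ccn5, a matricellular protein, fell from 41.7, 48.1 and 46.4 to 23.6, 23.5 and 23.7 CPM, with nearly equal values in the YEXX-2A libraries.

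The other falls were in adhesion and signalling genes, among others. Itgb4, the integrin subunit that binds laminin in hemidesmosomes, fell from 16.9, 15.9 and 13.7 to 6.1, 6.2 and 5.61 CPM (-1.37). Rasgrf1, an exchange factor that activates Ras (-1.93), and Cyth4, an exchange factor for ARF GTPases (-1.36), fell too. Padi3 converts arginine to citrulline in proteins and fell from 14.9, 18.7 and 15.9 to 6.58, 5.91 and 6.69 CPM. The water channel Aqp1 went from 78.4, 93.7 and 70 to 37.7, 32.7 and 33.7 CPM (-1.22, SE 0.13).

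Itgax, the integrin subunit known as CD11c, went from 36.5, 41.2 and 35.8 to 13.3, 11.7 and 15.5 CPM (-1.49, SE 0.13). Lsp1, an actin-binding protein first known from leukocytes, went from 198, 195 and 192 to 114, 117 and 108 CPM (-0.79, SE 0.07). Itgax is widely used as a marker of myeloid cells, but of 15 macrophage and leukocyte markers 3 (Cd3e and Cd163 among them) were at 0 in all 6 libraries and only Cd14 and Cd68 passed 1 CPM in any. Ptprc, the common leukocyte antigen, reached at most 0.0878 CPM. The summed level of the 15 markers was 151 to 184.5 CPM with vehicle and 131.8 to 135.2 CPM with YEXX-2A.

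**Figure D3:**
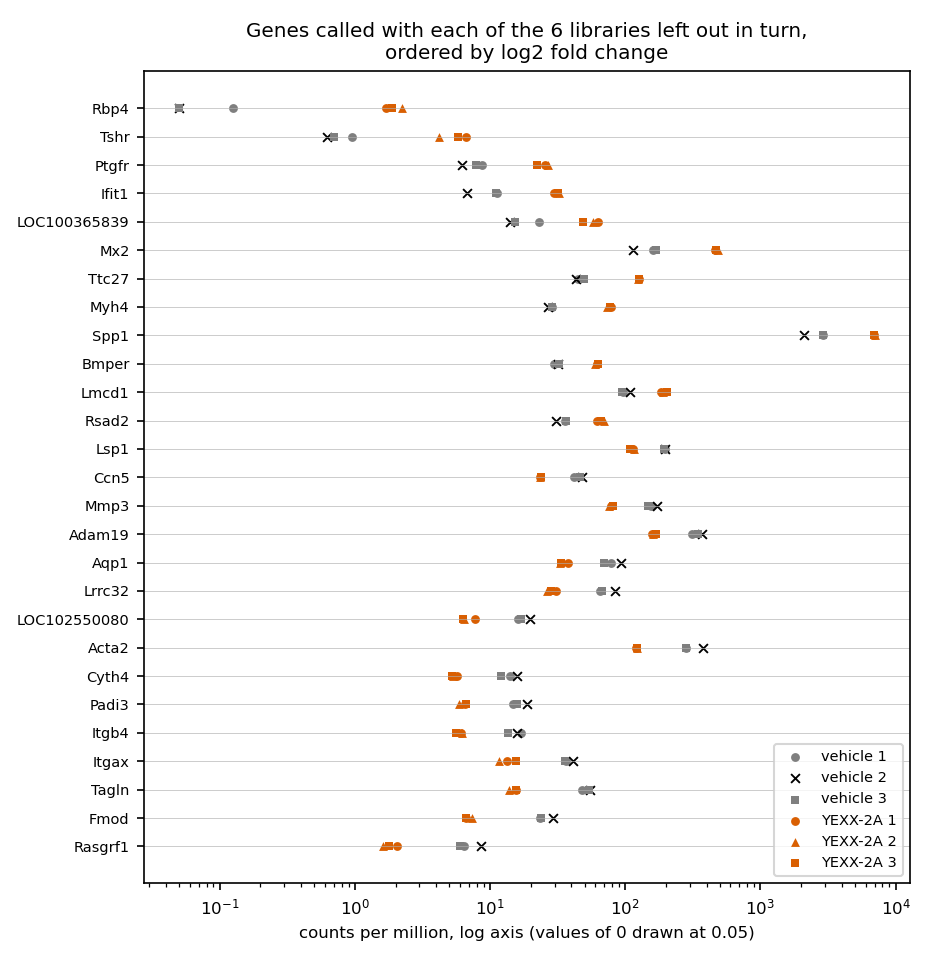
CPM in each library (log axis; grey and black, vehicle; orange, YEXX-2A) of the genes named in the text that were called with every one of the 6 libraries left out in turn, from the largest rise at the top to the largest fall at the bottom. Values of 0 (Rbp4) are drawn at the left edge, groups do not overlap in any gene, and vehicle 2 (cross) is in most of them the vehicle library farthest from YEXX-2A.

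Beyond that set, the 12 largest rises among genes called in both fits, with a mean of at least 1 CPM, also held Sorbs2, Samd9, Mphosph8, Cpne5, Ifi44l, Fam49a and RGD1566138. Sorbs2, an adaptor of actin and adhesion sites, went from 0.568, 0.774 and 0.563 to 2.81, 3.79 and 2.01 CPM (2.19, SE 0.33, adjusted p = 0.0137). Cpne5, a calcium-dependent phospholipid-binding protein, went from 0.694, 1.39 and 0.985 to 4.56, 3.1 and 4.24 CPM (1.97). These 2 genes changed more without vehicle 2, by 2.36 and 2.25 on the log2 scale. RGD1566138, described as similar to a zinc finger gene, had 10 counts in the vehicle libraries, all in vehicle 2, and 101 with YEXX-2A (ratio 7.62, exact interval 3.98 to 16.4). The interval covers counting error only and not the spread between libraries. Its call was close to the threshold (2.89, SE 0.80, edgeR adjusted p = 0.0497). Without vehicle 2 no vehicle count was left, and the fitted change was 7.97.

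The largest falls in that ranking were Col11a1, a minor fibrillar collagen (2.84, 2.63 and 3.1 to 0.351, 0.443 and 0.863 CPM), and Ace, the angiotensin-converting enzyme (1.64, 2.71 and 2.46 to 0.351, 0.443 and 0.791 CPM). Both were at low levels, with no overlap between groups. Siglec10, an inhibitory sialic acid receptor, and Col7a1, the anchoring fibril collagen, fell (-1.92 and -1.80). The others were Cacna1g, a T-type calcium channel (-1.78), Tnr, the glycoprotein tenascin-R (-1.72), Pappa2, a protease of insulin-like growth factor binding proteins (-1.74), and Cyp11a1, which cleaves the cholesterol side chain (-1.73). The unnamed gene model AABR07035479.1 was at 7.32, 13.8 and 4.36 CPM with vehicle and 1.45, 2.86 and 2.01 CPM with YEXX-2A. Its log2 fold change was -1.48 without vehicle 2, which was its highest library.

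Largest in absolute terms after Spp1 were, among others, the rises of Mt-co1 (10686, 8861 and 11679 to 14500.4, 15217 and 13686 CPM), the elongation factor Eef1a1 (0.41) and its near copy LOC100360413 (0.47). The largest losses in CPM were those of the collagens Col1a1 (-0.56) and Col3a1 (-0.90), a gene model of the second type I collagen chain, the matrix glycoprotein Fbln2 (-0.78) and the glycolytic enzyme Pkm (-0.73).

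The gene lists from here on were chosen with earlier results of these data known, so their shares are description only. Of 56 tested interferon-stimulated genes, 36 rose, against 5.92% of all tested genes. The same 36 were called without vehicle 2, where 45 rose against 15.4% of all tested genes. The median log2 fold change was 0.666, and 0.576 without vehicle 2. Relative to the mean of vehicle 1 and 3, the median member stood 0.06 lower in vehicle 2 and 0.58, 0.60 and 0.52 higher in YEXX-2A 1, 2 and 3 on the log2 scale, so the groups were well apart with or without vehicle 2. The number called was 16 without vehicle 1, 32 without vehicle 3, and 3, 10 and 12 without YEXX-2A 1, 2 and 3. An unadjusted p under 0.05 with a rise was found for 40 genes with all libraries and for 38 to 47 with any library left out.

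The promoters of 5 genes in this group are printed because they show the element bound by the interferon-activated factors. They are the bases before the outermost annotated start, from RefSeq on GRCr8, 5′ to 3′ on the gene's strand, for the genes with the smallest p whose only matches lie there. Capitals mark the core of the ISRE (GAAA, any 2 bases, GAAA) or its reverse complement.
Rsad2 (chr6:48788246-48788370, - strand): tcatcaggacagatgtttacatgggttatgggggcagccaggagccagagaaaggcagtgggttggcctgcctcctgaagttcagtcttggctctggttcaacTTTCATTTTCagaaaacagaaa
Igtp (chr10:42874887-42875046, + strand): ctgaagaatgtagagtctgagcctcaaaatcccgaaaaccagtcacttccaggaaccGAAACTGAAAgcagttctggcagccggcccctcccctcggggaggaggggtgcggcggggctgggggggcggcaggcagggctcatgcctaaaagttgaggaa
Ifit3 (chr1:241527166-241527325, + strand): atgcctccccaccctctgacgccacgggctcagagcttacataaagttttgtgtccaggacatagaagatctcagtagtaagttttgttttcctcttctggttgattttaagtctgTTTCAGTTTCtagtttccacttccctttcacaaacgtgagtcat
Xaf1 (chr10:57415775-57415934, + strand): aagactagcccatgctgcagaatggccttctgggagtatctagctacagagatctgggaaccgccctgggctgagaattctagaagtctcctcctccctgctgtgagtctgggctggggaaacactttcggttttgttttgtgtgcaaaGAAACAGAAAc
Parp14 (chr11:78407974-78408133, + strand): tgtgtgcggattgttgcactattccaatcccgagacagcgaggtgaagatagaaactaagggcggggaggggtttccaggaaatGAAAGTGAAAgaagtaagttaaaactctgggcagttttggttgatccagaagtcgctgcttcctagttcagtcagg
Counted from the annotated start, the matches ended between -94 (Igtp) and -2 (Xaf1). In Rsad2 and Ifit3 the match was on the reverse strand.

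Of the 42 tested interferon-stimulated genes with at least 1 window in the RefSeq promoter table (250 bases before to 50 after a start), 28 (66.7%) had this core on either strand, against 3.92% of 33469 windows of the same length. Among those called in both fits 21 of 27 (77.8%) had it, and among those not called 7 of 15 (46.7%). Mx1, Ifi47, Cmpk2, Herc6 and Parp9 were among the rises without a match in the window. A gene with several windows was counted once if any matched, while the share over all windows counts single windows. The shares are thus in unlike units, and a gene with several windows had more places for a match. This holds for the other motifs given with later groups too.

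The products of these genes act at several steps of the antiviral response. Of the GTPases that trap viral particles, Mx2 went from 162, 115 and 169 CPM in vehicle 1 to 3 to 461, 485 and 469.6 CPM in YEXX-2A 1 to 3 (1.67, SE 0.14, adjusted p = 0.00218), and Mx1 from 21.6, 14.1 and 24.9 to 53.9, 60.3 and 51.7 CPM (1.45, SE 0.19). Each YEXX-2A library was over 2 times the highest vehicle library in both. Mx genes are close copies, so reads may be split between them.

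The IFIT proteins bind viral RNA. Ifit1 went from 11.4, 6.73 and 11 to 29.8, 32.2 and 32 CPM (1.68, SE 0.19), Ifit3 from 11.2, 7.89 and 12.1 to 23.5, 26 and 24.2 CPM (1.23, SE 0.16) and Ifit2 rose by 1.03. Rsad2, which encodes viperin, an enzyme that makes a chain-terminating nucleotide, went from 35.8, 31 and 36.6 to 61.7, 69.4 and 65.8 CPM, and its neighbour Cmpk2, a mitochondrial nucleotide kinase, rose by 0.71. Vehicle 2 was the lowest library in all 5 of these genes, most clearly in Ifit1 and Ifit2.

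The oligoadenylate synthetases activate RNase L when they meet double-stranded RNA. Oas2 was at 9.84, 10.1 and 9.36 CPM with vehicle and 19.9, 20.5 and 18.6 CPM with YEXX-2A (1.02, SE 0.12), and Oasl2 at 46.1, 40.9 and 49.5 and 85.1, 84.5 and 78.1 CPM (0.86, SE 0.10). In Oas2 vehicle 2 did not stand apart from the other vehicle libraries. The kinase Eif2ak2 (PKR), which stops translation in infected cells, rose by 1.10, and the RNA sensor Ifih1 (MDA5) by 1.13.

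Among immunity-related and guanylate-binding GTPases, Igtp went from 20.8, 18.2 and 22 to 38.8, 36.2 and 37.7 CPM (0.89), and Ifi47 (0.89), Irgm (0.62), Gbp2 (0.64) and Gbp4 (1.23) rose too. Gbp1 was close to 0 in all vehicle libraries (0.126, 0.232 and 0.211 CPM) and at 1.8, 2.17 and 1.29 CPM with YEXX-2A (3.20, SE 0.39). Gbp4 and Gbp1 rest on few counts.

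The ubiquitin-like modifier Isg15 went from 78.4, 70.8 and 70.4 to 119, 109 and 108 CPM (0.62, SE 0.09) and Usp18, the protease that removes it and restrains the receptor, from 123, 126 and 124 to 169, 166 and 186 CPM (0.48). Of the transcription factors of the pathway, Irf7 went from 521, 589 and 461 to 723, 633 and 701 CPM (0.39). The Irf7 call was lost without vehicle 1 (adjusted p = 0.092), vehicle 3 (0.0624) and YEXX-2A 1, 2 and 3 (0.166, 0.142 and 0.112). Stat2 (0.17, adjusted p = 0.206) and Irf9 (0.20, adjusted p = 0.166) were called only without vehicle 2 (adjusted p = 0.00263 and 0.0189).

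Parp9 and Dtx3l, partners in a ubiquitin ligase complex, rose by 0.77 and 0.69, and the related Parp14 and Parp12 by 0.80 and 0.38. Samd9, a factor that blocks poxvirus replication, went from 10.7, 6.35 and 13.1 to 37.5, 53.3 and 33.4 CPM (2.04, SE 0.27). The receptor-transporting protein Rtp4 went from 35, 31.8 and 31.5 to 56.1, 53.8 and 55.5 CPM, and Xaf1, Trim21, Herc6, Ifi44, Ifi44l, Ifitm3, Oas1a, Zbp1 and Sp100 rose by 0.43 to 1.86. Irf1 moved the other way, at -0.28 (adjusted p = 0.0651) and -0.21 without vehicle 2 (adjusted p = 0.021).

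A separate list of genes upstream of this response showed no shared direction. The RNA sensor Ifih1, the kinase Eif2ak2 and the factor Irf7, which rose, were counted with the interferon-stimulated genes and not here. Of 18 tested interferon receptors, sensors and adaptors, 9 changed upward and 9 downward, with a median of 0.002. The single call, against 12.5% of all tested genes, was a fall of the feedback inhibitor Socs3 (-0.59, adjusted p = 0.0334). Without vehicle 2 edgeR called 1 fall and 3 rises (15.4% of all tested genes rose). Adar (0.25, adjusted p = 0.00585) and Tbk1 (0.45, adjusted p = 0.0192) were among these rises. EdgeR called none of the 18 without vehicle 1 or any 1 YEXX-2A library, while 1 to 3 falls and 1 to 2 rises had an unadjusted p under 0.05. In these fits 2461 to 4193 of all 11255 tested genes had such a p. Of 18 antigen presentation genes, which interferons also induce, 3 rose, against 5.92% of all tested genes. They were B2m, the light chain of class I molecules (597, 473 and 608 to 792, 869 and 737 CPM), and the class I genes RT1-T24-1 (0.71) and RT1-S3 (0.33). Without vehicle 2 the number was 8, against 15.4% of all tested genes, among them the immunoproteasome subunit Psmb9 (0.33, adjusted p = 0.00438). Without vehicle 1 or any 1 YEXX-2A library edgeR called none of this list, while 3 to 5 rises had an unadjusted p under 0.05. The RT1 genes are near copies of each other.

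**Figure D4:**
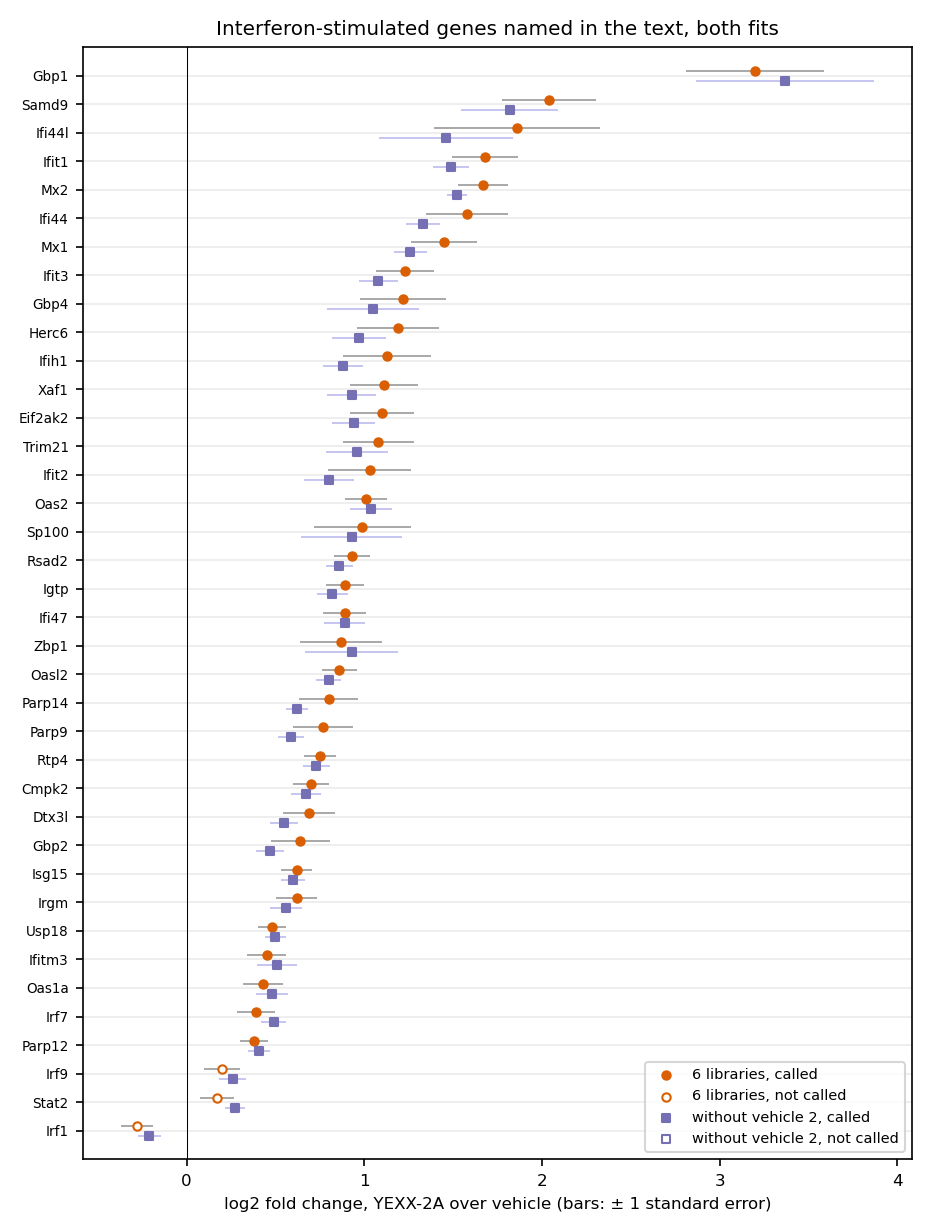
Log2 fold change (points) with 1 standard error (bars) of the interferon-stimulated genes named in the text, with all 6 libraries (orange circles) and without vehicle 2 (purple squares); filled symbols were called. Those called with all libraries were also called without vehicle 2, most with a somewhat smaller change.

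Cholesterol synthesis genes rose as well. Of 27 tested sterol synthesis and uptake genes 11 rose, against 5.92% of all tested genes, and the same 11 rose without vehicle 2, where 16 rose (15.4% of all tested genes) and 1 fell. The median log2 fold change over the list was 0.277, and 0.342 without vehicle 2. Called members such as Hmgcs1 (0.58), Cyp51 (0.82), Insig1 (0.60) and Sqle (0.39) changed less without it than with all libraries. Only 1 member was called without vehicle 1 and 1 without YEXX-2A 3. Without YEXX-2A 1 or 2 edgeR called none, while 12 and 14 had an unadjusted p under 0.05 with a rise.

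In the order of the pathway, Acat2, which joins acetyl groups, rose by 0.37, and Hmgcs1, the synthase that makes HMG-CoA, went from 106, 70.1 and 108 to 154, 170.3 and 154 CPM (0.75, SE 0.16). Vehicle 2 was its lowest library. Idi1, the isopentenyl isomerase, went from 11.4, 5.42 and 11.7 to 25.5, 28.8 and 21.7 CPM (1.41, SE 0.26, adjusted p = 0.0217), and 1.14 without vehicle 2.

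Sqle, the squalene epoxidase, went from 88.6, 74.7 and 89.9 to 114, 119 and 116 CPM (0.47). Cyp51, the lanosterol demethylase, showed the clearest change of the pathway, from 504, 369 and 508 to 855, 903 and 915 CPM (0.95, SE 0.13, adjusted p = 0.00856). The later enzymes Msmo1 (0.42), Nsdhl (0.39), Hsd17b7 (0.70) and Sc5d (0.55) rose. Insig1, the sterol-regulated brake on SREBP processing, went from 134, 102 and 153 to 213, 218 and 219 CPM (0.74), and the sterol carrier Stard4 rose by 0.51.

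Efflux genes gave 1 fall of 7 tested, against 6.59% of all tested genes, and no rise. Abca1, the transporter that exports cholesterol and is induced by LXR receptors, fell from 4.67, 5.03 and 5.56 to 2.63, 3.1 and 3.17 CPM (-0.78, SE 0.18, adjusted p = 0.0346). All 7 tested LXR targets had a change below 0, with a median of -0.318, and so did 5586 of all 11255 tested genes. Leaving out vehicle 1 or any 1 YEXX-2A library left no edgeR call among the LXR targets, while 2 to 4 falls had an unadjusted p under 0.05. Of 16 fatty acid synthesis and desaturation genes 2 rose, against 5.92% of all tested genes. They were Acsl3, which activates fatty acids (0.85), and Acaca, which makes malonyl-CoA (0.33). Neither edgeR call stood without vehicle 1 or any 1 YEXX-2A library, where 2 to 3 rises of the list had an unadjusted p under 0.05. Fasn, the fatty acid synthase, was called only without vehicle 2 (0.51, adjusted p = 0.000102). The sterol regulatory core TCACNCCAC was in none of the 20 windowed sterol genes and in 1.12% of all windows, and CCAAT was in 15 of 20 (75.0%) against 37.5%. Windows of this length may miss elements further away.

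Glycolysis and hypoxia-response genes moved down. Of 33 tested, 16 fell, against 6.59% of all tested genes, and the same 16 fell without vehicle 2. In that fit 22 fell and 1 rose, against 14.1% and 15.4% of all tested genes. The median was -0.381, and -0.308 without vehicle 2. In the median member vehicle 2 stood 0.21 above vehicle 1 and 3, and the YEXX-2A libraries 0.34, 0.33 and 0.30 below (log2 scale). Without vehicle 1 the number that fell was 4 and without vehicle 3 it was 17. Without any 1 YEXX-2A library edgeR called none, while 19 to 22 had an unadjusted p under 0.05 with a fall.

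Falls ran along the glycolytic chain. Hk2, the hexokinase that traps glucose, went from 153, 192 and 167 to 97.6, 107 and 112 CPM (-0.69, SE 0.10), and Pfkl, the liver-type phosphofructokinase, from 232, 303 and 227 to 156, 150.0 and 165 CPM (-0.70). Gpi (-0.60), Aldoa (-0.67), Tpi1 (-0.47), Pgam1 (-0.40) and Eno1 (-0.53) fell too. Pgk1, which makes ATP in the pay-off phase, went from 634, 732 and 663 to 444, 444 and 468 CPM (-0.58, SE 0.08, adjusted p = 0.0108), and Pkm, the pyruvate kinase, from 2125, 2808 and 2098 to 1421, 1362 and 1471 CPM (-0.73). Vehicle 2 was the highest library in most of these genes, but not in Ldha, the lactate dehydrogenase, at 984, 950.2 and 1007 CPM with vehicle and 682, 704 and 747 CPM with YEXX-2A.

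Other targets of hypoxia-inducible factors fell alongside. Ca9, a carbonic anhydrase on the cell surface, had the smallest p of the group and went from 259, 344 and 283 to 169, 167 and 177 CPM (-0.79, SE 0.11, adjusted p = 0.0105). The collagen prolyl hydroxylases P4ha1 and P4ha2, induced by hypoxia, fell (-0.40 and -0.35), as did the glucose transporter Slc2a1 (-0.39) and Ero1a, an oxidase of the endoplasmic reticulum (-0.38). The core ACGTG bound by these factors was in 20 of 29 windowed members (69.0%), 8 of the 12 called in both fits and 12 of the 17 others, against 19.3% of all windows.

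Of 29 tested genes of amino acid synthesis and the ATF4 stress response, 10 fell, against 6.59% of all tested genes, 1 rose and 18 were not called. All 11 calls held without vehicle 2, where 16 fell (14.1% of all tested genes) and 4 rose. The median of -0.326 moved to -0.21. In the median member vehicle 2 stood 0.30 above vehicle 1 and 3, and YEXX-2A 1, 2 and 3 stood 0.26, 0.25 and 0.16 below (log2 scale). Stc2, a secreted glycoprotein, went from 40.5, 51 and 45 to 28.2, 28.8 and 31.2 CPM (-0.63, SE 0.11), and Pycr1, the last enzyme of proline synthesis, from 94.6, 119.8 and 89.4 to 60.5, 59.7 and 68.4 CPM (-0.69). Serine and one-carbon enzymes Phgdh (-0.52) and Shmt2 (-0.47) and the stress factors Cebpb (-0.56), Ddit3 (-0.38), Chac1 (-0.52) and Sesn2 (-0.49) fell.

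Slc7a11, the cystine importer, was the exception and rose from 37.7, 24.8 and 39.1 to 64.7, 64.6 and 49.3 CPM (0.81, SE 0.18), with vehicle 2 lowest. Its partner chain Slc3a2 fell (-0.37). For this group 11 falls were called without vehicle 3 and 1 without vehicle 1, and edgeR called none without any 1 YEXX-2A library, where 13 to 16 falls had an unadjusted p under 0.05.

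NRF2 targets gave 4 falls and 2 rises of 26 tested, against 6.59% and 5.92% of all tested genes. All held without vehicle 2, where 9 fell, against 14.1% of all tested genes. Falls dropped to 1 without vehicle 1 and to 0, 1 and 1 without YEXX-2A 1, 2 and 3. EdgeR called no rise in these 4 fits, and 4 to 7 falls and 2 to 3 rises had an unadjusted p under 0.05. The glutathione transferase Gstm1 went from 85.8, 105 and 81.8 to 47.9, 45.8 and 45.3 CPM (-0.97, SE 0.11, adjusted p = 0.00509). The pentose phosphate enzyme Tkt (-0.50) and the heme oxygenase Hmox1 (-0.46) also fell, and Slc7a11 and the peroxiredoxin Prdx1 (0.40) rose. The NRF2 targets that changed thus went in both directions.

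Cytokine and NF-κB feedback genes gave 10 falls and 2 rises of 32 tested, against 6.59% and 5.92% of all tested genes. All 12 held without vehicle 2, where 16 fell, against 14.1% of all tested genes. Nos2, the inducible nitric oxide synthase, went from 30.3, 36.5 and 29.2 to 19.2, 16.1 and 19.1 CPM (-0.82, SE 0.13, adjusted p = 0.0172). Il11, a TGF-β-induced cytokine of the interleukin-6 family, was low at 1.26, 1.08 and 0.985 CPM with vehicle and lower at 0.176, 0.345 and 0.216 CPM with YEXX-2A (-2.15, SE 0.36). The groups did not overlap in either gene. Lif, of the same cytokine family, went from 22.3, 28.1 and 25.1 to 17.9, 16.9 and 16.8 CPM (-0.55), and the neutrophil attractant Cxcl1 from 23.5, 23.2 and 21.5 to 15.1, 17 and 13.2 CPM (-0.59).

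Bcl3 (-0.81), Nfkbia (-0.35) and Nfkbie (-0.46), regulators of NF-κB that it induces, the adhesion molecule Icam1 (-0.44), the iron-binding Lcn2 (-0.62) and Csf3 (-1.27) fell. Both rises were chemokines. Cxcl11, an interferon-induced chemokine, went from 3.6, 1.86 and 3.59 to 6.19, 6.5 and 5.9 CPM (1.03), and Cxcl12, a chemokine of resting stroma, from 8.58, 6.04 and 10.1 to 12.9, 14 and 15.4 CPM (0.76). Ptgs2, which makes prostaglandins, and Nfkbiz were called only without vehicle 2 (-0.79 and -0.81). Without vehicle 1 or any 1 YEXX-2A library edgeR called none of this group, while 14 to 16 falls and 2 rises had an unadjusted p under 0.05.

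Early response transcription factors gave 7 falls of 26 tested, against 6.59% of all tested genes, and no rise. The falls dropped to 2 without vehicle 1, and edgeR called none without any 1 YEXX-2A library, where 8 to 11 had an unadjusted p under 0.05. Fosl1, a subunit of AP-1, went from 87.8, 106 and 87.3 to 59.2, 61.2 and 60.9 CPM (-0.63, SE 0.10), and Maff, a small leucine-zipper factor, from 25.7, 33.7 and 29.3 to 18.1, 14.6 and 14.3 CPM (-0.91, SE 0.15). Myc (-0.49), Klf2 (-0.92), Klf4 (-0.67), Ier3 (-0.53) and the phosphatase Dusp1 (-0.50) also fell, and all 7 held without vehicle 2. Klf4 changed more without it (-0.82), since vehicle 2 was the lowest vehicle library for that gene (41.6, 30 and 45 CPM with vehicle and 21.8, 27.2 and 24.2 CPM with YEXX-2A).

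Of 23 p53 targets 5 fell, against 6.59% of all tested genes. They were Phlda3 (327, 433 and 322 to 217, 210.4 and 224 CPM), an inhibitor of AKT, Gadd45a (-0.69), the polo-like kinases Plk2 (-0.70) and Plk3 (-0.67), and Sesn2. All 5 held without vehicle 2, where 8 fell and 3 rose, against 14.1% and 15.4% of all tested genes. Only 1 fall was left without vehicle 1. Without any 1 YEXX-2A library edgeR called none, while 7 to 8 falls had an unadjusted p under 0.05. The list median was -0.005, so most members did not follow these 5.

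Of 40 TGF-β, BMP and SMAD genes 2 rose and 3 fell, which equals the 12.5% of all tested genes called, and of 26 other growth factor and receptor genes 3 rose and 2 fell. All 10 calls held without vehicle 2. EdgeR called none of them without vehicle 1 or any 1 YEXX-2A library, apart from 1 fall in the growth factor list without vehicle 1, while 5 to 8 rises and 4 to 8 falls in each list had an unadjusted p under 0.05. Tgfbr1, the type I TGF-β receptor, rose from 19.8, 10.9 and 19.9 to 31.3, 35.5 and 28.8 CPM (0.91, SE 0.22), while Pdgfrb, the PDGF receptor of stroma, fell from 139.8, 181 and 151 to 100.03, 102 and 109 CPM (-0.60, SE 0.11). Bmp6 (-0.74), Tgfb3 (-0.44) and the inhibitory SMAD gene Smad6 (-0.59) fell. The epithelial growth factor Fgf7 (0.95), the stem cell factor gene Kitlg (1.01) and Fgf1 (0.42) rose. Tgfbr1, Fgf7 and Kitlg were lowest in vehicle 2, and their rises without it were 0.69, 0.76 and 0.81.

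Among Wnt and YAP targets 5 of 23 tested fell and 1 rose, against 6.59% and 5.92% of all tested genes, and the same 6 were called without vehicle 2. Axin2, a feedback gene of Wnt, went from 20.8, 20 and 20.3 to 13.3, 13.2 and 13.6 CPM (-0.61, SE 0.11), and the Wnt inhibitor Apcdd1 from 31, 29.2 and 28.6 to 20.1, 19.8 and 21.5 CPM (-0.53). Both had nearly equal values in the 3 vehicle libraries. The receptor Fzd2 (-0.71) and the ligand Wnt4 (-0.71) fell, and the secreted Wnt binder Sfrp4 rose (0.58). Gli1, a target and effector of Hedgehog signalling, went from 28.9, 32.3 and 29.8 to 17.9, 16.2 and 19.9 CPM (-0.75, SE 0.12). Without vehicle 1 or any 1 YEXX-2A library edgeR called none of the Wnt and YAP targets, while 7 to 9 falls had an unadjusted p under 0.05.

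Of 17 retinoid, thyroid and steroid handling genes 2 rose, Rbp4 and Tshr, and 4 fell, against 5.92% and 6.59% of all tested genes. The falls were those of Ace, the receptors Rara (-0.53) and Rarg (-0.36) and Cyp26b1, which degrades retinoic acid (8.01, 9.67 and 9.43 to 5.18, 5.17 and 6.04 CPM, -0.73). Both rises were called with any library left out, and of the falls 1 was called without vehicle 1, 1 without YEXX-2A 3 and 0 without YEXX-2A 1 or 2, where edgeR gave 6 an unadjusted p under 0.05.

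Of 28 transporters 3 rose and 4 fell, of 16 clock genes 1 rose and 2 fell, and of 32 axon guidance and adhesion genes 1 rose and 4 fell, against 12.5% of all tested genes called in either direction. All of these held without vehicle 2. The transporters that rose were the sodium pump subunit Atp1b1 (0.50), Slc7a11 and Slc38a4 (0.74), and those that fell were the nucleoside transporter Slc29a1 (-0.60), Slc3a2, Slc6a6 (-0.32) and Slc6a9 (-0.36). In the clock, Clock rose by 0.77 and Per3 (-0.42) and Bhlhe40 (-0.36) fell. The guidance receptors Plxnd1 (-0.61) and Ephb3 (-0.53) and the ephrins Efna1 (-0.56) and Efnb1 (-0.49) fell, and the semaphorin Sema3d rose (0.81). With vehicle 1 or any 1 YEXX-2A library left out edgeR called none of these 15 genes except 1 guidance gene, Plxnd1, without vehicle 1, while 1 to 7 rises and 4 to 10 falls in each list had an unadjusted p under 0.05.

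The matrix and contractile programmes have their own place in a fibrosis study and are given briefly. Of a panel of 19 fibrosis genes 2 rose, Tgfbr1 among them, and Tagln, Fmod, Acta2, Col3a1, Hmox1 and Col1a1 fell, against 5.92% and 6.59% of all tested genes. All 8 held without vehicle 2, where 9 fell (14.1% of all tested genes), with Smad3 (-0.17), Ccn2 (-0.21) and Tgfb1 (-0.22) added. The panel median of -0.217 moved to -0.083 without vehicle 2. In its median member vehicle 2 stood 0.17 above vehicle 1 and 3 (log2 scale). YEXX-2A 1, 2 and 3 stood 0.13, 0.16 and 0.13 below them. The falls numbered 4 without vehicle 1 and 3, 4 and 4 without YEXX-2A 1, 2 and 3. EdgeR called no rise in these 4 fits, where 2 to 3 had an unadjusted p under 0.05. Among 39 genes of collagens and matrix glycoproteins there were 19 falls and 2 rises, all 21 held without vehicle 2, and the median of -0.372 moved to -0.29. Col5a3 went from 98.5, 133 and 109.6 to 56.8, 54 and 56 CPM (-1.03), Mfap5, of elastic microfibrils, from 35.8, 39.2 and 32.9 to 16.5, 18.4 and 19.4 CPM (-0.99), and Col12a1 from 1381, 1353 and 1492 to 951, 912 and 913 CPM (-0.61). Without vehicle 1, 10 fell, and without YEXX-2A 1, 2 and 3, 1, 5 and 6 did. EdgeR called no rise there, while 2 to 4 had an unadjusted p under 0.05.

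Of 21 contractile and actin-linked genes 8 fell and 2 rose, against 6.59% and 5.92% of all tested genes, with a median of -0.293 and of -0.158 without vehicle 2. All 10 held without vehicle 2, where 11 fell and 5 rose, against 14.1% and 15.4% of all tested genes. The falls dropped to 3 without vehicle 1 and to 2 without each YEXX-2A library, and the rises to 1 without YEXX-2A 3 and to 0 without vehicle 1, YEXX-2A 1 or YEXX-2A 2, where 2 to 3 rises had an unadjusted p under 0.05 in edgeR. Beside Tagln and Acta2, the smooth muscle actin Actg2 (-1.37), the intermediate filament Des (-0.92) and the collagen receptor subunit Itga11 (-0.76) fell, while Sorbs2 and Itga1 (0.69) rose.

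Of 11 tubulins 4 fell, against 6.59% of all tested genes. All 4 held without vehicle 2, where 8 fell, against 14.1% of all tested genes. The falls dropped to 1 without vehicle 1 and to 0, 1 and 1 without YEXX-2A 1, 2 and 3, where 5 to 9 had an unadjusted p under 0.05 in edgeR. Tubb2a went from 303, 367 and 303 to 185, 184 and 195 CPM (-0.79, SE 0.10, adjusted p = 0.00575), and Tuba1a (-0.50), Tuba4a (-0.44) and Tubb5 (-0.41) fell less. Reads may be split between tubulin copies, and vehicle 2 was the highest library for each of the 4. In the median tubulin vehicle 2 stood 0.25 above vehicle 1 and 3 (log2 scale). YEXX-2A 1, 2 and 3 stood 0.21, 0.28 and 0.18 below them.

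Some gene groups moved with vehicle 2 as much as with YEXX-2A. This held for the fibrosis panel and the ATF4 list above, where vehicle 2 stood higher and YEXX-2A lower, and for further groups. The median of the 46 G2/M and mitosis genes stood 0.54 below vehicle 1 and 3 in vehicle 2 and 0.20, 0.42 and 0.10 above them in YEXX-2A 1, 2 and 3. Its median fold change of 0.478 was 0.273 without vehicle 2, and of 4 rises (5.92% of all tested genes rose) 2 held, those of Ncapg, a condensin subunit (7.89, 5.26 and 7.74 to 15.3, 17.9 and 13 CPM), and the kinesin Cenpe (0.59). The calls of the condensin cores Smc2 (adjusted p = 0.0599 without vehicle 2) and Smc4 (0.0545) did not hold. Chromatin and long-transcript regulators (36 tested, 4 rises, median 0.399 and 0.222 without vehicle 2) and spliceosome factors (35 tested, 3 rises, 0.23 and 0.166) showed the same order of libraries, with vehicle 2 at -0.52 and -0.29. Though the changes were smaller, 13 mitotic, 14 chromatin and 15 spliceosome genes were called higher without vehicle 2. Each is a larger share than the 15.4% of all tested genes, and 2, 2 and 1 fell. Leaving out vehicle 1, YEXX-2A 1 or YEXX-2A 2 left no edgeR call in these 3 lists, and leaving out YEXX-2A 3 left 1 mitotic and 1 chromatin gene. In those 4 fits 9 to 23 mitotic, 8 to 19 chromatin and 7 to 16 spliceosome genes had an unadjusted p under 0.05 with a rise.

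The mitochondrially encoded genes, 13 in all, had 6 rises, against 5.92% of all tested genes, a median of 0.596 and of 0.434 without vehicle 2, and 5 of the 6 held. A single rise was left without YEXX-2A 3 and edgeR called none without vehicle 1, YEXX-2A 1 or YEXX-2A 2, where 8 to 11 rises had an unadjusted p under 0.05. Mt-nd6, on the light strand, went from 15.2, 9.98 and 14.3 to 32.9, 32.6 and 21.5 CPM (1.14), and Mt-nd2 from 465, 359 and 470.2 to 598, 756 and 602 CPM (0.60). The Mt-nd3 call did not hold (0.89, adjusted p = 0.0725). Vehicle 2 was 0.42 below the other vehicle libraries here, and the part of RNA quality or depth in these shifts was not tested.

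Of 70 ribosomal protein genes 29 rose, against 5.92% of all tested genes, and 24 of them held without vehicle 2, where 28 rose (15.4% of all tested genes) and 1 fell. The rises dropped to 1 without vehicle 1, to 5 without YEXX-2A 3 and to 0 by edgeR without YEXX-2A 1 or 2, while 35 to 41 had an unadjusted p under 0.05 in these 4 fits. The median was 0.337 and 0.32 in turn. Rps6 went from 201, 142 and 219 to 358, 337 and 316 CPM (0.85, SE 0.15), Rpl9 from 233, 196 and 254 to 339, 346 and 333 CPM (0.58) and Rps12 from 282, 247 and 262 to 369.8, 369.6 and 341 CPM (0.45). In the median member YEXX-2A 3 stood at 0.14 and YEXX-2A 1 and 2 at 0.37 and 0.34, so the YEXX-2A libraries themselves differed. These genes have many near-identical pseudogene copies.

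**Figure D5:**
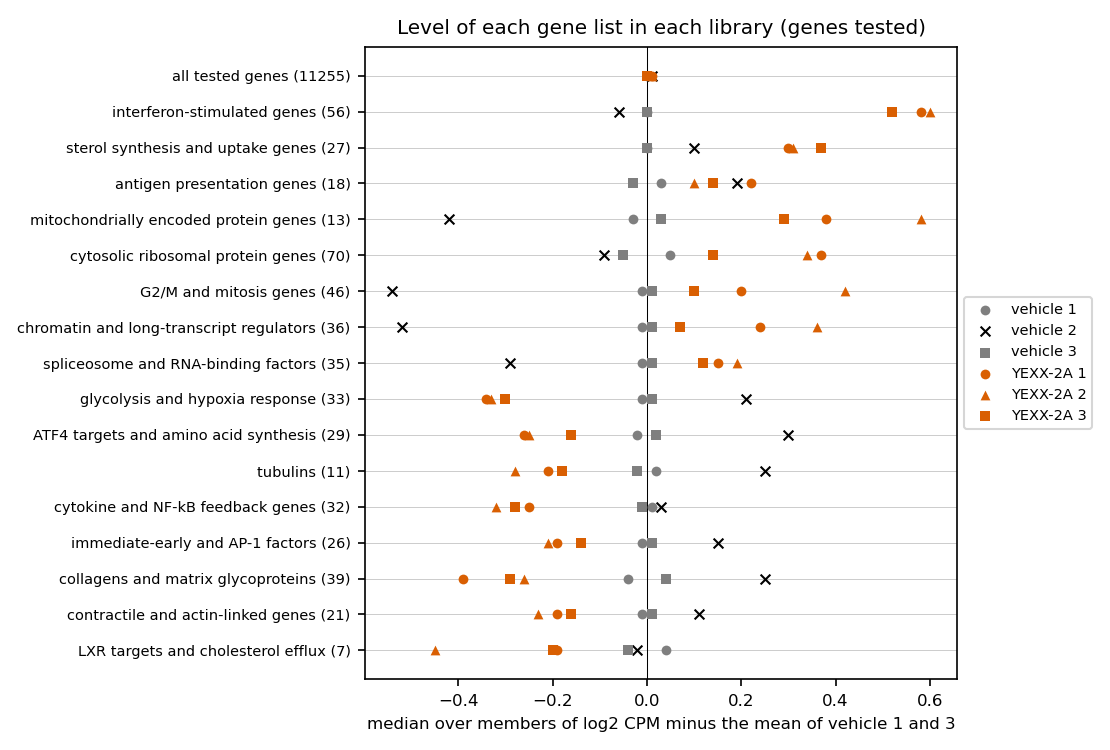
Median over the tested members of each gene list of the log2 CPM in a library minus the mean of vehicle 1 and 3 (points; grey and black, vehicle; orange, YEXX-2A; tested genes in brackets). In the interferon and cytokine lists vehicle 2 (cross) lies near the other vehicle libraries. In the mitotic, chromatin, splicing and ATF4 lists it lies farther from them than the YEXX-2A libraries do.

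Leaving out vehicle 2 removed 20 calls, 18 of them rises. The largest changes among them at a mean of at least 1 CPM were those of Cdkl3, a kinase of the cyclin-dependent family (1.10, and 0.87 with adjusted p = 0.0567 without vehicle 2), Mt-nd3, LOC108348080, annotated as an rRNA-processing protein (1.03 and 0.91), the centrosome gene Lrrcc1 (1.03 and 0.92), LOC100365062, annotated as an initiation factor subunit (1.01 and 0.78), and Cops2, a COP9 signalosome subunit (0.98 and 0.75). All kept the direction of a rise. In Cops2 the values were 23.6, 13.1 and 25.8 CPM with vehicle and 39.3, 51.8 and 32.5 CPM with YEXX-2A, with vehicle 2 lowest.

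Leaving it out added 1936 calls, 1086 rises and 850 falls. At a mean of at least 1 CPM, the largest rises among them in the fit without vehicle 2 were those of Nox1, an NADPH oxidase (1.32), Map3k7, the TGF-β-activated kinase TAK1, and Epb41l3, a membrane skeleton protein (1.15). The largest falls there were those of the collagenase Mmp13, LOC100910875, annotated as a FAM100A-like protein (-1.33), and 1 of the gene models named Rbm12 (-1.25). Map3k7 was listed at 0 in vehicle 2, against 6.56 and 6.54 CPM in vehicle 1 and 3 and 17, 15.4 and 11.4 CPM with YEXX-2A, and its change without vehicle 2 was 1.17 (SE 0.17, adjusted p = 0.000351). Mmp13 was at 5.93, 2.71 and 5.49 CPM with vehicle and 1.71, 2.41 and 2.59 CPM with YEXX-2A, where vehicle 2 lay next to the highest YEXX-2A library (-1.37 without it, adjusted p = 0.000571).

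In several further lists calls went in both directions. Heat shock genes gave 4 rises and 2 falls of 20 tested, with Hsp90aa1 (1.01) and Hspa4 (0.98), both lowest in vehicle 2, and the co-chaperone Dnajb4 (0.99) as rises, and Hspb1 (-0.54) and the factor Hsf1 (-0.40) as falls. Early secretory genes gave 5 rises and 3 falls of 31, with the signal peptidase subunits Spcs2 (0.49) and Spcs1 (0.39) up and the coat proteins Sec24d (-0.35) and Sec31a (-0.41) down. Nuclear respiratory chain genes gave 6 rises and 2 falls of 50, among them Ndufs4 (0.52) and Uqcrc1 (-0.64). DNA replication genes gave 3 rises and 2 falls of 40, with Pola1 (1.11) and Pcna (0.62) up and Cdt1 (-0.53) and Pold1 (-0.48) down. Fatty acid oxidation gave 2 rises and 3 falls of 22, with Plin2, a lipid droplet coat protein, at -0.54. With all 6 libraries the share called was 12.5% of all tested genes, the same among the DNA replication genes, and higher in the other 4 lists. Without vehicle 2 the DNA replication genes gave 9 rises and 7 falls, a larger share than the 29.5% of all tested genes. With vehicle 1 or any 1 YEXX-2A library left out edgeR called none of these members except 1 heat shock gene without vehicle 1, while 2 to 15 rises and 2 to 8 falls in each list had an unadjusted p under 0.05.

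Lysosome and autophagy genes gave 1 rise and 2 falls of 36, those of Neu1, a sialidase (0.42), and of Gpnmb (-0.35) and Tfeb (-0.60). Of 31 proteasome subunits 2 rose, of 25 endoplasmic reticulum chaperones and folding genes 1 rose (Dnajb9, 0.76), and of 20 aminoacyl-tRNA synthetases 2 fell (Wars1, -0.34, and Sars1, -0.36). With all 6 libraries these shares are below the 12.5% of all tested genes called. Without vehicle 2, where 29.5% of all tested genes were called, proteasome subunits gave 9 rises and 3 falls. The synthetases gave 3 rises and 7 falls there, and both shares are above 29.5%. Lysosome genes (2 rises and 5 falls) and reticulum genes (6 rises and 1 fall) stayed below it. Of 10 complement genes 1 rose, and C1qtnf1 (-0.71) and Masp1 (-0.37) fell with all 6 libraries, a share above 12.5%. None of these 5 lists kept an edgeR call without vehicle 1 or any 1 YEXX-2A library, while 0 to 11 rises and 0 to 8 falls in each had an unadjusted p under 0.05.

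Most markers of other cell types were low, apart from Krt8, on the epithelial list, at up to 2150 CPM, and Eng, on the endothelial list, at up to 249 CPM, which is above the fibroblast marker Pdgfra. Krt8 ranked 46 with vehicle and 66 with YEXX-2A among all genes by mean FPKM. Of 20 kidney epithelial markers 7 were at 0 in all libraries, Epcam and Krt18 among them, and 3 passed 1 CPM in any library (Krt8, Aqp1 and Cubn), with a summed level of 1731 to 2253 CPM with vehicle and 1472 to 1562 CPM with YEXX-2A. Krt8 made up nearly all of that sum. Of 11 endothelial markers 4 passed 1 CPM (Eng, Egfl7, Flt1 and Vwf), with sums of 231.5 to 289.7 and 209.1 to 228.9 CPM, and Cdh5 stayed under 1 CPM. The part of such cells in the fall of Aqp1 was not tested.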

How the data were processed

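Poly(A)-selected RNA of NRK-49F cells was sequenced in 9 libraries, and the 3 vehicle and 3 YEXX-2A libraries were used. For every gene and library the deposited table holds an estimated count, and beside it a length-scaled FPKM, per the file headers. The submitters' processing notes name StringTie 1.3.1, RSEM, DESeq2 and edgeR, without roles; the aligner, genome build and use of strand are not given in the sources used here, so antisense and overlapping genes cannot be separated. Of the deposited counts above 0, 8.77% were not whole and were rounded.

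Genes were kept by filterByExpr with a minimum count of 10 and scaled by TMM, and CPM are on those scaled sizes. The edgeR 4.0.16 quasi-likelihood test (robust; R 4.3.3) was fitted on the 6 libraries and again on the same genes without vehicle 2, with Benjamini-Hochberg adjustment over all 11255 genes. A fold change is log2 YEXX-2A over vehicle, and SE is its size divided by the square root of F. The script was tested on simulated counts. Alternatives that changed the tool, scale or filter, the fit of all 9 libraries, a replicate block and leaving out each library are in the closing section (limma 3.58.1, DESeq2 1.42.0). The lists and members were chosen with earlier results of these data known.

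Named genes were the 12 largest rises and falls called in both fits (groups apart, mean 1 CPM or more), the called list members with the smallest p, the 6 largest calls lost and 6 gained without vehicle 2, the 5 largest differences in CPM in each direction, the fibrosis panel, and list members described by role. Genes called with every library left out, Gli1 and the counts of small groups were chosen after their values were seen. Of the 1295 list entries 1262 matched a gene in the table. Results on some genes are not reported here.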

Additional observations from a re-analysis of the deposited data

How the results depend on the processing

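All 1408 genes called with 6 libraries kept their direction in each alternative that tested them. DESeq2's size factors, upper-quartile scaling, limma-voom, no filter and a filter of 1 CPM in 3 libraries gave 1324 to 1607 calls. DESeq2's Wald test gave 2849, voom with quality weights 5339 and a fit of all 9 libraries 4196. On the authors' FPKM, limma called 777 at a pseudocount of 1 and 597 at 0.1. Of the 1408 genes called by edgeR, 214 changed at least 2-fold. Leaving out 1 library gave 29 to 3324. Without vehicle 2, 169 of the 3324 calls changed at least 2-fold and leaving out another library gave 1043 to 4424. There the FPKM fit split 1667 higher and 931 lower, against 1734 and 1590.

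Of interferon-stimulated genes, 17 rose at least 2-fold and leaving out 1 library gave 3 to 45. Of sterol genes 1 did, voom with quality weights called 17 and leaving out 1 library gave 0 to 16. Of glycolysis genes none did (0), and leaving out 1 library gave 0 to 22.

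Deviations of same-numbered libraries from their group mean correlated at 0.07, -0.31 and -0.14. Vehicle 2 weighs on the mean of its group, so these values cannot decide whether the replicate numbers paired the libraries. With the replicate number as a block, 10 genes were called (6 higher, 4 lower), with 1 interferon-stimulated gene, 0 sterol genes and 0 glycolysis genes, and without vehicle 2 the block gave 2825.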
